A study of Mus musculus with 20 samples.

Results

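Metallothioneins and a group of zinc and manganese transporters were followed in kidney and bone marrow of mice given oxaliplatin, a platinum chemotherapy drug. The 9 genes, of 55486 listed, were the metallothioneins Mt1, Mt2 and Mt3, the transcription factor gene Mtf1, the exporters Slc30a1 and Slc30a10, and the importers Slc39a8, Slc39a10 and Slc39a14. They were chosen by gene symbol from results of the same oxaliplatin against vehicle contrasts, so their values in these contrasts are given as a description, without a test. RNA was sequenced from 5 libraries of each of 4 groups, labelled as biological replicates: kidney ctrl, kidney oxa, BM ctrl and BM oxa. All were C57BL/6 mice that entered the study at the age of 10 weeks. Control mice received 5% dextrose and oxa mice 10 mg/kg oxaliplatin in that solution, both by intraperitoneal injection over 8 weeks. Marrow was collected from tibia and femur after the last dose. Mouse numbers name libraries within a group, and nothing ties a kidney library to a marrow library with the same number.

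Metallothioneins are small cysteine-rich proteins that bind zinc, copper and other soft metals, and their transcription is raised by zinc. MTF1 is the zinc-sensing transcription factor that binds metal response elements in the promoters of metallothionein genes and of Slc30a1. Transporters of the SLC30 (ZnT) family move zinc out of the cytosol and those of the SLC39 (ZIP) family move it in. SLC30A10 is unusual within its family because it exports manganese, whereas ZIP8 and ZIP14, encoded by Slc39a8 and Slc39a14, carry manganese as well as zinc into cells.

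RefSeq promoter windows, running from 250 bases before to 50 bases after the annotated start on GRCm38.p6, were found for 8 of the 9 members. They were searched on both strands for the core of the metal response element, spelled TGCACNC or TGCGCNC, with overlapping matches counted as 1 site. Of 32544 different promoter windows in the table, 25.9% held at least 1 such site, 6.19% at least 2, 1.32% at least 3 and 0.298% at least 4. Mt1 held 3 sites, Mt2 held 4, and Slc30a1 and Slc30a10 held 2 each. One site each was found in Mt3 and in 1 of the 2 windows of Slc39a8, and none in the windows of Mtf1 and Slc39a10. The windows with 2 or more sites are printed below, with the core in capitals, to show where the motif sits in the genes whose levels differed most or that MTF1 is known for. Mt1 lies at chr8:94178839-94179138 and Mt2 at chr8:94172368-94172667. Slc30a1 lies at chr1:191906531-191906830 and Slc30a10 at chr1:185454598-185454897. All 4 are on the plus strand. A match describes letters, not binding.
Mt1: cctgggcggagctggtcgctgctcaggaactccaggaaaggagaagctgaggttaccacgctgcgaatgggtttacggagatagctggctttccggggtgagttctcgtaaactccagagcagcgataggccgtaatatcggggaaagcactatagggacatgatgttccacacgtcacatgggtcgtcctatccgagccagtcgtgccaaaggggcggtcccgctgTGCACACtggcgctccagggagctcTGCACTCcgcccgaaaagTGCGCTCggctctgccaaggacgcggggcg
Mt2: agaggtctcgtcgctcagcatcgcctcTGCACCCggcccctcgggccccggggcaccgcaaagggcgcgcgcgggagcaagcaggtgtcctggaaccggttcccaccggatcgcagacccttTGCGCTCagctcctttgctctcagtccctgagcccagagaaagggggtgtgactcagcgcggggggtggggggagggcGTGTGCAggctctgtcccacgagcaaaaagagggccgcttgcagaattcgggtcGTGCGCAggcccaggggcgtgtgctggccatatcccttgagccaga
Slc30a1: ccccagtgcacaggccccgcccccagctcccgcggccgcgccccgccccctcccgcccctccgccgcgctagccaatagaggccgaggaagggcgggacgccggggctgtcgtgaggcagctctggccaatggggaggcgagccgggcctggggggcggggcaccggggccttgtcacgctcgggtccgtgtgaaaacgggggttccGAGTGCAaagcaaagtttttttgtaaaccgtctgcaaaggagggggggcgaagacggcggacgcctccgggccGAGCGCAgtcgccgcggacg
Slc30a10: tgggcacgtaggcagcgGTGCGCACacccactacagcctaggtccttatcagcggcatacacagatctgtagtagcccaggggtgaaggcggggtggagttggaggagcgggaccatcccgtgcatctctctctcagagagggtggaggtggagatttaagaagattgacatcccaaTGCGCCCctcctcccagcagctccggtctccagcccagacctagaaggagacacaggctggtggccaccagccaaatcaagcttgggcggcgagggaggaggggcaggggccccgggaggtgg

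Mt4 (from 94137197), Mt3 (from 94152607), Mt2 (from 94172664) and Mt1 (from 94179082) lie in this order on the plus strand of chromosome 8 in the GENCODE M21 annotation of GRCm38. Mt4, which is not among the 9 members, had at most 1 count in any library. The annotation also sets a limit on Mt2. Of its 588 exon bases, 432 are shared with Gm45774, an antisense gene on the other strand, which leaves 156 bases at the end of the last exon. According to the methods only unambiguous reads were counted, and strand use in counting is not given in the sources used here. Mt2 had between 0 and 60 counts per library and Gm45774 between 0 and 16. If strand was ignored, reads from the shared bases would have been dropped or could not be told apart between both genes, so the level of Mt2 is uncertain.

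**Figure D1:**
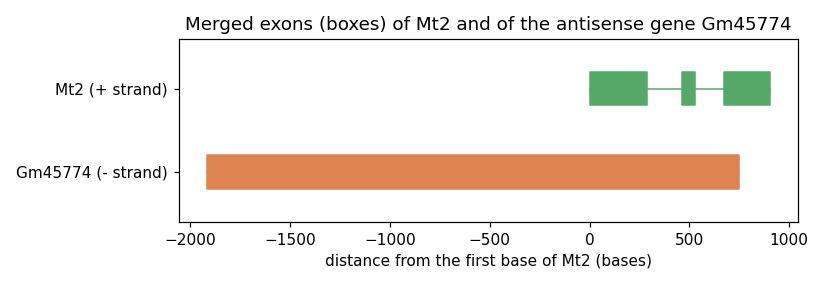
Merged exons of Mt2 (green boxes, plus strand) and of the antisense gene Gm45774 (orange box, minus strand), plotted by distance in bases from the first base of Mt2. The orange box covers the first 2 exons of Mt2 and the start of the third, 432 of 588 exon bases.

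Total counts ranged from 24393007 to 30925430 in kidney and from 30660153 to 41140527 in bone marrow. A floor of 3 counts stood for 0.09 to 0.13 CPM in kidney and 0.0668 to 0.0975 CPM in marrow. CPM are counts relative to library size after TMM scaling, a correction for library composition made within each tissue unless both tissues are named. Of the tissue markers, 10 proximal tubule genes summed to between 15087.9 and 21636.3 CPM in kidney, against 589 to 952 CPM in vehicle marrow and 70.3 to 171 CPM in oxaliplatin marrow, most of it Aqp1, which is also expressed in red cells. The 10 neutrophil genes summed to between 10708.8 and 28898.4 CPM in bone marrow, but reached no more than 3.89 CPM in kidney. The study used mice of both sexes, but 4 Y-linked genes summed to at least 77.5 CPM in every library. No library therefore came from a female alone, and the covariate of Y-linked genes used below does not separate the sexes. Among these genes Kdm5d was lower in marrow after oxaliplatin, by less than 1.5-fold (log2 fold change -0.50, edgeR adjusted p = 0.00356). A gene was called where edgeR's adjusted p was under 0.05 and the groups differed by more than 1.5-fold. In kidney 11.5% of 19293 tested genes were called, 7.68% higher and 3.81% lower. In bone marrow 23.3% of 22363 were called, 11.6% higher and 11.8% lower. Library size alone in place of TMM moved the higher share of the calls from 66.8% to 82.7% in kidney and from 49.6% to 63.4% in bone marrow, and the median log2 fold change of all genes from 0.025 to 0.16 and from -0.038 to 0.11.

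In vehicle mice most of the members were higher in kidney than in bone marrow, and Slc30a10 was above the floor in bone marrow alone. This contrast of the 2 vehicle groups was not itself used to choose the members, so it was tested. It shares its vehicle libraries with the contrasts that were used, so it is not independent of that choice. A gene chosen for a fall in marrow, such as Slc30a10, is likely to be high there with vehicle. The p values below are given with that limit. Of the 9 members, 6 were called higher in kidney, 1 lower and 2 were not called. Of 24321 genes 72.9% were called in either direction, and 47.5% of those calls were higher in kidney. Nothing about the members as a set is read from these counts. Kidney RNA was purified on a column and marrow RNA with Trizol followed by a column, so tissue and extraction cannot be told apart. Scaled over all 20 libraries, Mt1 was measured at 99.1 ± 12.8 CPM in vehicle kidney and 17.6 ± 1.7 CPM in vehicle marrow (SD, n = 5 mice each). That is a 5.64-fold difference, a log2 difference of 2.5 (standard error 0.20, edgeR adjusted p = 6.1e-11). The 2 groups did not overlap. Slc39a14 was 7.2-fold higher in kidney, at 61.4 ± 6.74 against 8.54 ± 2.25 CPM (SD, n = 5, edgeR adjusted p = 1.2e-13).

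Slc30a1, the exporter at the plasma membrane, was 3.52-fold higher in vehicle kidney than in vehicle marrow, at 96.4 ± 12.4 against 27.4 ± 1.36 CPM (SD, n = 5, edgeR adjusted p = 6.5e-13). For Slc39a8 the difference was 2.95-fold, at 70.3 ± 3.56 against 23.8 ± 2.52 CPM (SD, n = 5, edgeR adjusted p = 4.7e-08). Slc39a10, a zinc importer used by lymphocytes and macrophages, was 1.91-fold higher in kidney (edgeR adjusted p = 3.3e-07), and with library size alone its log2 difference of 0.94 became 0.51, under the 1.5-fold limit. Mt2 was 8.77-fold higher in kidney (edgeR adjusted p = 0.00017), although kidney vehicle mouse 5 had 0 counts and lay within the marrow range. Mt3, best known from neurons, was at 0.991 ± 0.382 CPM in kidney and 0.789 ± 0.444 CPM in marrow (SD, n = 5, edgeR adjusted p = 0.506). Mtf1 was lower in kidney, at 42.5 ± 1.53 against 56.7 ± 1.59 CPM (SD, n = 5). Its log2 difference of -0.42 (standard error 0.094, edgeR adjusted p = 0.00034) did not reach 1.5-fold.

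Slc30a10 had 0 or 1 count in each of the 5 vehicle kidneys, none of which reached the 3-count floor, and 10.5 ± 1.85 CPM in vehicle marrow (SD, n = 5). Set against the highest floor among the vehicle kidneys, the marrow level was at least 70.3-fold higher.

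Divided by the length of the merged exons of all transcripts, Mt1 had the highest level of the 9 members in both vehicle tissues, at 79.6 ± 10.2 CPM per kb in kidney and 14.1 ± 1.36 CPM per kb in marrow (SD, n = 5). The merged exons of Mt1 cover the whole gene as 1 block, so this is a low estimate. In kidney it was followed by Slc30a1 at 18.4 ± 2.36, Slc39a8 at 9.17 ± 0.465 and Slc39a14 at 5.82 ± 0.639 CPM per kb. Slc39a14 and Slc39a10 did not differ beyond 1 SD each, nor did Slc39a10 and Mtf1, or Mt2 and Mt3. In marrow Mtf1 came next to Mt1, at 6.37 ± 0.178 CPM per kb, before Slc30a1 at 5.23 ± 0.259 CPM per kb. Slc39a8 and Slc39a10 lay within 1 SD of each other there, as did Slc39a14 and Mt3. Per kb of unshared exon in place of all exon, Mt2 in vehicle kidney went from 1.3 to 4.91 CPM per kb (SD 2.98). On that basis Mt2 differed beyond 1 SD each from Mt3, at 0.93 ± 0.358 CPM per kb, but not from Mtf1, at 5.19 ± 0.187 CPM per kb.

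**Figure D2:**
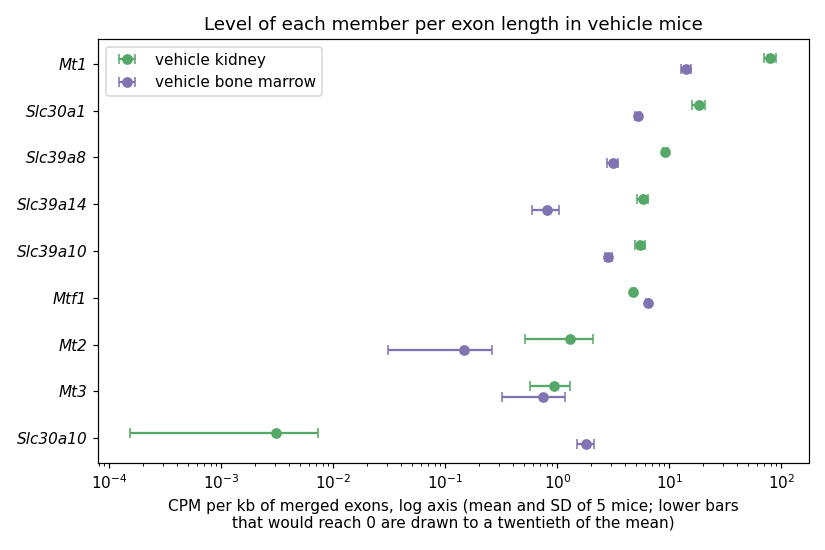
Level of each member in vehicle mice, as CPM scaled over all 20 libraries and divided by kb of merged exons, on a log axis, with the mean and SD of 5 mice for kidney (green) and bone marrow (purple). Mt1 is highest in both tissues, at 79.6 and 14.1 CPM per kb, and Slc30a10 in kidney stays under the 3-count floor.

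Turning to treatment, the 3 metallothioneins had higher means after oxaliplatin in both tissues. In kidney Mt1 was at 77.2, 92.6, 79.4, 103 and 78.8 CPM in the 5 vehicle mice and at 219, 127, 149, 81.1 and 153 CPM in the 5 oxaliplatin mice. Of the 5 oxaliplatin mice, 4 lay above every vehicle mouse, and oxaliplatin mouse 4 lay inside the vehicle range. The means were 86.2 ± 11.3 and 146 ± 49.9 CPM (SD, n = 5), a log2 fold change of 0.76 (standard error 0.23). Leaving out oxaliplatin mouse 1, the highest, gave 0.57, just under 1.5-fold, and leaving out mouse 4 gave 0.92.

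In bone marrow Mt1 was at 23.4, 18.2, 19.7, 21 and 20.6 CPM with vehicle and at 48.2, 59, 77.8, 56.2 and 50.5 CPM with oxaliplatin. Every oxaliplatin mouse was above every vehicle mouse, with mouse 3 the highest. The means of 20.6 ± 1.9 and 58.3 ± 11.7 CPM (SD, n = 5) gave a log2 fold change of 1.5 (standard error 0.13), a 2.84-fold difference. Per mouse, the spread of Mt1 after oxaliplatin was wide in both tissues, from 81.1 to 219 CPM in kidney and from 48.2 to 77.8 CPM in marrow.

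Mt2 rested on few counts. Its counts summed over 5 mice were 84 with vehicle and 230 with oxaliplatin in kidney, and 16 and 180 in bone marrow. In kidney the values were 0.635, 0.915, 0.734, 1.05 and 0 CPM with vehicle and 2.15, 1.72, 1.91, 0.842 and 1.26 CPM with oxaliplatin. As for Mt1, oxaliplatin mouse 1 was highest and mouse 4 was the only one within the vehicle range. The log2 fold change was 1.23 (standard error 0.50) in kidney and 3.19 (standard error 0.58) in marrow, both on few counts. In marrow the 5 oxaliplatin mice, between 0.432 and 1.22 CPM, all lay above the vehicle mice, which reached 0.175 CPM.

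Mt3 overlapped between groups in both tissues. In marrow it was at 0.728, 0.349, 1.61, 0.627 and 1.3 CPM with vehicle and at 2.45, 2.44, 5.06, 2.18 and 1.02 CPM with oxaliplatin, giving a log2 fold change of 1.52 (standard error 0.45). Mouse 3 again held the highest value, and without it the log2 fold change was 1.14. In kidney the ranges were 0.403 to 1.25 CPM and 0.667 to 1.94 CPM, which gave a log2 fold change of 0.59 (standard error 0.35).

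Mtf1, the zinc sensor, differed little by treatment. Kidney values were 38.8, 35.8, 36.5, 36.9 and 36.7 CPM with vehicle and 30.5, 35.8, 33.1, 32.9 and 29.3 CPM with oxaliplatin, giving a log2 fold change of -0.19 (standard error 0.069) that was -0.061 with library size alone. In 4 oxaliplatin mice Mtf1 was below the vehicle range. In marrow the vehicle mice were tightly grouped between 64 and 67.7 CPM, and the oxaliplatin mice ranged from 56.1 to 77.5 CPM. The log2 fold change there was -0.093 (standard error 0.10) and turned to 0.053 with library size alone.

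**Figure D3:**
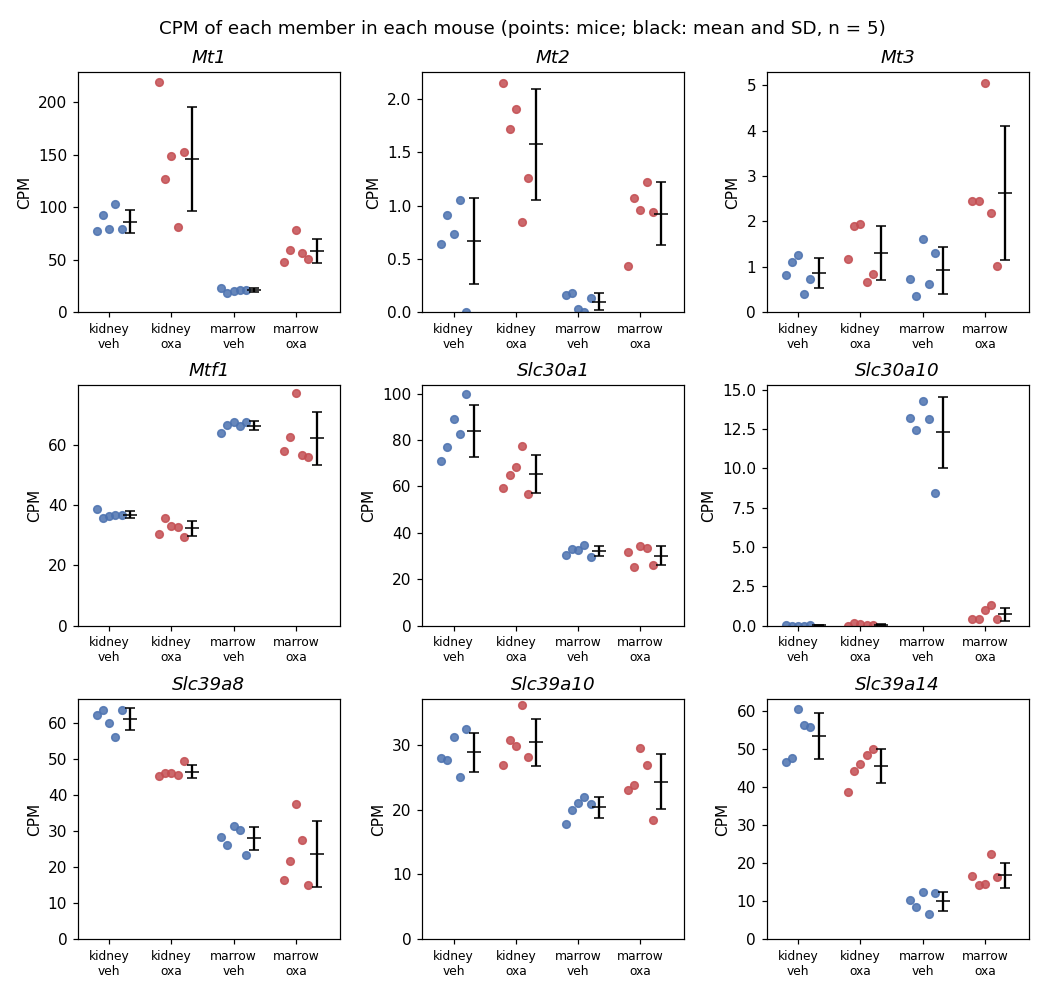
CPM of the 9 members in each mouse (points), with the mean and SD of 5 mice in black, for vehicle (veh, blue) and oxaliplatin (oxa, red) in kidney and bone marrow, each axis starting at 0 and scaled within each tissue. Slc30a10 in marrow lies between 8.45 and 14.3 CPM with vehicle and between 0.404 and 1.29 CPM with oxaliplatin, and Mt1 in marrow lies higher in all 5 oxaliplatin mice.

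Slc30a10, the manganese exporter, had the log2 fold change of greatest size among the members. In marrow the vehicle mice had 13.2, 12.4, 14.3, 13.1 and 8.45 CPM, from 260 to 458 counts per mouse, and the oxaliplatin mice had 0.432, 0.439, 0.979, 1.29 and 0.404 CPM, from 14 to 58 counts. The groups lay far apart, with vehicle mouse 5 lowest of its group and oxaliplatin mice 3 and 4 highest of theirs. The means were 12.3 ± 2.26 and 0.709 ± 0.404 CPM (SD, n = 5), a log2 fold change of -4.08 (standard error 0.33), 17-fold lower. In kidney Slc30a10 had between 0 and 4 counts per mouse, did not pass the filter on low counts and is given no fold change.

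Transcripts of red cell precursors were also lower in these marrows. All 16 late erythroid genes were called lower (median log2 fold change -2.69, against -0.038 over all genes), and their summed level was 35902.8 to 60642.9 CPM with vehicle and 4952.8 to 11839.4 CPM with oxaliplatin. Of 12 early erythroid genes, 10 were called lower, with a median of -1.31. No gene on either list was at 0 in all marrow libraries. Among vehicle mice, mouse 5 had the lowest Slc30a10 and the lowest late and early erythroid sums. This was not particular to erythroid genes. Vehicle mouse 5 also had the lowest macrophage sum, 1295.7 CPM, and the lowest Slc39a8 and Slc30a1, at 23.4 and 29.7 CPM. The B cell, neutrophil and adipocyte sums were lowest in other vehicle mice. Among oxaliplatin mice 1 to 5 the early sum was 1218.3, 1741.0, 2669.0, 1694.1 and 1308.5 CPM. Slc30a10 in the same order was 0.432, 0.439, 0.979, 1.29 and 0.404 CPM. In mice 1, 2 and 5 it rested on 14 or 15 counts, too few to rank these mice. The late sum was lowest in mouse 4, which had the highest Slc30a10. Fewer cells of a type and less RNA per cell cannot be told apart in bulk RNA, and the part of erythroid cells in the Slc30a10 difference was not tested.

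Slc30a1 was at 71.1, 76.8, 88.9, 82.5 and 99.8 CPM in vehicle kidneys and at 59.3, 64.9, 68.2, 77.6 and 56.5 CPM after oxaliplatin. Again 4 oxaliplatin mice lay below all vehicle mice, and mouse 4 lay inside their range. The log2 fold change was -0.36 (standard error 0.10). Thus in kidney oxaliplatin mouse 4 had the lowest Mt1, and the highest Slc30a1, of its group. In marrow Slc30a1 ranged from 29.7 to 34.8 CPM with vehicle and from 25.3 to 34.1 CPM with oxaliplatin, giving a log2 fold change of -0.094 (standard error 0.11), which turned to 0.059 with library size alone and to 0.027 with a covariate of Y-linked genes.

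Of the importers, Slc39a8 was the only member whose kidney groups did not overlap. Vehicle kidneys had 62.2, 63.5, 60.1, 56.2 and 63.5 CPM and oxaliplatin kidneys 45.3, 46.1, 46, 45.5 and 49.5 CPM. All 5 oxaliplatin mice were lower, with means of 61.1 ± 3.06 and 46.5 ± 1.73 CPM (SD, n = 5). The log2 fold change was -0.39 (standard error 0.061), less than 1.5-fold, and -0.26 with library size alone. In marrow Slc39a8 was at 28.2, 26.2, 31.5, 30.4 and 23.4 CPM with vehicle and spread from 14.9 to 37.5 CPM with oxaliplatin (16.3, 21.7, 37.5, 27.6 and 14.9 CPM). There 3 of 5 oxaliplatin mice were below the vehicle range and mouse 3 was above it, so the log2 fold change of -0.24 (standard error 0.22) was -0.47 without mouse 3, -0.065 without mouse 5 and 0.062 with the Y-linked covariate.

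Slc39a14, the importer that carries manganese and zinc into liver cells, was higher after oxaliplatin in marrow and had a lower mean in kidney. Marrow values were 10.3, 8.32, 12.4, 6.56 and 12.2 CPM with vehicle and 16.6, 14.2, 14.5, 22.5 and 16.3 CPM with oxaliplatin. The marrow groups did not overlap, and the log2 fold change was 0.75 (standard error 0.19), 1.69-fold. In kidney the values were 46.6, 47.7, 60.6, 56.3 and 56 CPM with vehicle and 38.7, 44.4, 46.1, 48.5 and 50.2 CPM with oxaliplatin, giving a log2 fold change of -0.23 (standard error 0.086). There 3 oxaliplatin mice lay below the vehicle range and 2 within it. Slc39a10 overlapped in both tissues, with log2 fold changes of 0.073 (standard error 0.091) in kidney and 0.26 (standard error 0.13) in marrow, where 4 of 5 oxaliplatin mice, between 23 and 29.6 CPM, lay above the vehicle maximum of 22 CPM.

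**Figure D4:**
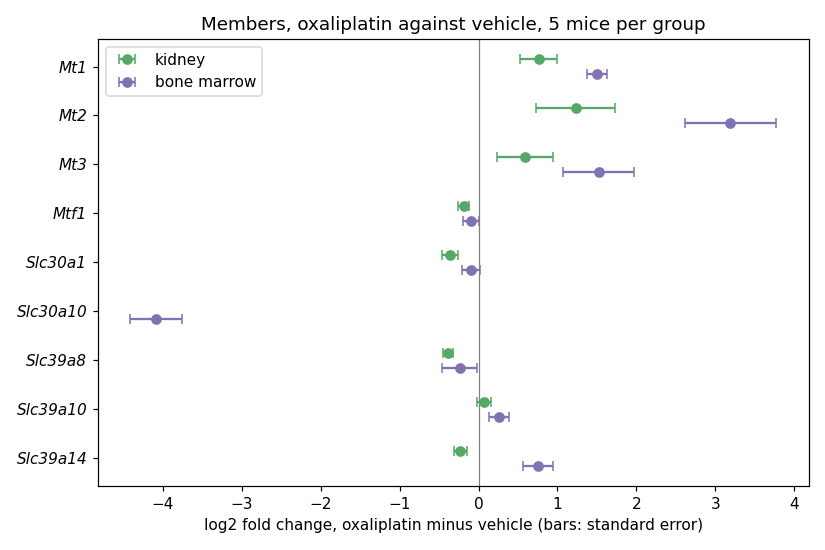
Log2 fold change of each member, oxaliplatin minus vehicle, with its standard error, in kidney (green) and bone marrow (purple), 5 mice per group. Values run from -4.08 (Slc30a10) to 3.19 (Mt2) in marrow and from -0.39 (Slc39a8) to 1.23 (Mt2) in kidney, where Slc30a10 could not be tested.

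Counted by the rule used for all genes, Mt1 was past the threshold in kidney out of 8 members that passed the filter, beside 11.5% of all genes. In marrow Mt1, Mt2, Mt3 and Slc39a14 were past it in the higher direction and Slc30a10 in the lower direction, 5 of 9, beside 23.3%. The groups did not overlap for 1 of 8 members in kidney, beside 20.7% of all tested genes, and for 4 of 9 in marrow, beside 24.9%. Since the members were selected from these contrasts, nothing is read from these counts. The median log2 fold change of the members was -0.06 in kidney and 0.26 in marrow, beside 0.025 and -0.038 over all genes.

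Other markers moved with treatment in these libraries. In marrow all 12 adipocyte genes were called higher (summed level 218 to 318 CPM with vehicle, 1205.1 to 4930.3 CPM with oxaliplatin), 7 of 9 B cell genes lower (339 to 612 against 92.8 to 156 CPM), and 5 of 10 macrophage genes higher, while of 10 neutrophil genes 0 were called by edgeR or DESeq2 and 0 had an unadjusted edgeR p under 0.05 (20490.8 to 24982.5 against 10708.8 to 28898.4 CPM). Within the oxaliplatin group marrow mouse 3 had the highest Mt1, Mt3, Mtf1, Slc39a8 and Slc39a10. It also had the lowest macrophage and neutrophil sums, 1461.5 and 10708.8 CPM, and the highest early erythroid sum, 2669.0 CPM. The adipocyte sum of this mouse, 4543.8 CPM, lay inside the range of the other oxaliplatin mice. In kidney 7 of 11 tested adipocyte genes were called higher and 1 lower, 5 of 8 macrophage genes lower and 1 higher, and 4 of 5 podocyte genes higher. Of 10 proximal tubule genes 3 were called lower, and of 6 tested tubular injury genes 2 were higher. Of 10 genes of the loop and distal nephron 0 were called by edgeR or DESeq2 (8 at an unadjusted edgeR p under 0.05), but 3 passed the adjusted p below the fold limit, all higher, namely Slc12a1 (log2 fold change 0.32), Aqp3 (0.29) and Aqp2 (0.36), and the summed level did not overlap between the groups (4903.3 to 5761.3 against 6025.9 to 6622.1 CPM). The part of these cells in the members' values was not tested.

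Metallothionein genes are also known to respond to glucocorticoids and to interleukin 6, so genes of those responses were read beside them. Of 10 glucocorticoid-responsive genes, 7 were called higher in marrow, including Pdk4 (log2 fold change 3.34), Errfi1 (2.05), Ddit4 (1.44) and Klf9 (1.43), and 2 in kidney, Ddit4 (1.34) and Per1 (0.83). Errfi1 went the other way in kidney, at -0.49 (edgeR adjusted p = 0.00101), under the fold limit. There every oxaliplatin mouse lay below the vehicle range for Errfi1. The remaining genes of this list did not pass the adjusted p in kidney. Of genes responsive to interleukin 6 and STAT3, 5 of 8 tested were called higher in marrow and 4 of 7 in kidney. Socs3, the feedback inhibitor, had log2 fold changes of 1.74 in marrow and 0.67 in kidney, and Hp, which encodes haptoglobin, of 1.35 and 2.67. In marrow every oxaliplatin mouse lay above every vehicle mouse for Pdk4 (1.39 to 2.01 CPM with vehicle, 15.4 to 23.2 with oxaliplatin), Errfi1, Klf9 and Sgk1, and the same held for all 5 called genes of the interleukin 6 list, Socs3 (14 to 19.7 against 46.3 to 63.2 CPM), Hp, Lrg1, Osmr and Il6. The groups overlapped for the other called glucocorticoid genes, Fkbp5, Zbtb16 and Ddit4. Whether either response has a part in the metallothionein values was not tested.

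Of 4 other genes reported as MTF1 targets, 0 were called in kidney by edgeR or DESeq2, and 3 had an unadjusted edgeR p under 0.05. Csrp1 (log2 fold change 0.50, edgeR adjusted p = 0.00012) and Selenow (0.27, edgeR adjusted p = 0.00697) passed the adjusted p there but not the fold limit, and both were above the vehicle range in every oxaliplatin mouse. In marrow Selenow, a selenoprotein gene, was called higher with a log2 fold change of 0.78 (edgeR adjusted p = 0.00074), and Gclc, which encodes the catalytic subunit of glutamate-cysteine ligase, lower, at a log2 fold change of -1.60 (edgeR adjusted p = 7.6e-06). Among 11 genes of copper handling, Cp, which encodes the copper protein ceruloplasmin, was called higher in both tissues, with log2 fold changes of 1.48 in kidney and 1.17 in marrow. The only others called were Sod1 (-0.72) in kidney and Atp7b (-1.21) in marrow, both lower.

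The rest of the ZnT and ZIP families, and genes that carry or use manganese, were tested in the same fits. In kidney 1 of 6 tested ZnT genes, 1 of 10 ZIP genes and 1 of 8 manganese genes were called. Over all genes tested in kidney the share called was 11.5%, so nothing about these lists as a set is read from the counts. Slc30a2, which loads zinc into vesicles, fell from 116 ± 7.88 to 58.2 ± 13 CPM (SD, n = 5 mice), that is by 0.99 ± 0.13 (SE) on the log2 scale with an edgeR adjusted p of 0.00012, and 5 of 5 oxaliplatin mice lay below the vehicle mice. Slc39a11 fell from 51.1 ± 3.75 to 31.9 ± 5.64 CPM (SD, n = 5), a log2 fold change of -0.68 (edgeR adjusted p = 0.00014) that became -0.55, under 1.5-fold, with library size alone. Arg2, the mitochondrial form of the manganese enzyme arginase, rose from 1.51 ± 0.267 to 5.36 ± 1.46 CPM (SD, n = 5), a log2 fold change of 1.83 (edgeR adjusted p = 9.9e-06).

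With the fold limit dropped, 5679 of 19293 tested genes passed in kidney, and 10 of them were on these lists. Besides the 3 above, these 10 were Slc30a4, Slc30a5, Slc39a1, Slc39a9, Slc11a2 and Sod2, all lower, and Slc40a1, higher. Slc30a5, a zinc transporter of the secretory pathway, had a log2 fold change of -0.45 (edgeR adjusted p = 0.00013), and Slc11a2, the divalent metal transporter DMT1, of -0.46 (edgeR adjusted p = 0.00022). The ZnT genes had a median of -0.23 and the ZIP genes of -0.04 in kidney, beside 0.025 over all genes.

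In marrow 1 of 6 tested ZnT genes, 3 of 11 ZIP genes and 2 of 8 manganese genes were called. The share called over all genes tested in marrow was 23.3%, and again nothing about the lists as a set is read from the counts. Slc30a9, a zinc transporter of mitochondria, fell from 158 ± 10.01 to 66.6 ± 4.88 CPM (SD, n = 5), that is by 1.24 ± 0.084 (SE) on the log2 scale with an edgeR adjusted p of 4.1e-07. Slc39a1, a zinc importer of the plasma membrane, rose from 55.2 ± 6.9 to 100.4 ± 18.8 CPM (SD, n = 5), a log2 fold change of 0.86 (edgeR adjusted p = 0.0003). Slc11a2 fell from 87 ± 9.65 to 36.3 ± 9.2 CPM (SD, n = 5), a log2 fold change of -1.26 (edgeR adjusted p = 5.1e-05), with no overlap between groups. Sod2, the mitochondrial manganese superoxide dismutase, rose by 0.65 on the log2 scale (edgeR adjusted p = 0.00151).

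Slc39a2 and Slc39a12 were called lower in marrow on 57 counts or fewer per mouse, with log2 fold changes of -1.49 (edgeR adjusted p = 0.0192) and -1.0 (edgeR adjusted p = 0.0294). Neither call held throughout: leaving out vehicle mouse 5 gave Slc39a2 an adjusted p of 0.0523, and leaving out vehicle mouse 2 gave Slc39a12 one of 0.0907. Over all settings tried the adjusted p ran from 0.00966 to 0.124 for Slc39a2 and from 0.0107 to 0.0907 for Slc39a12. The erythroid, B cell and adipocyte sums given above moved with these changes as well, and their part was not tested. Slc39a7 shares 2084 of 2584 exon bases with Gm20427 on the same strand, so its values, not called in either tissue, are uncertain.

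**Figure D5:**
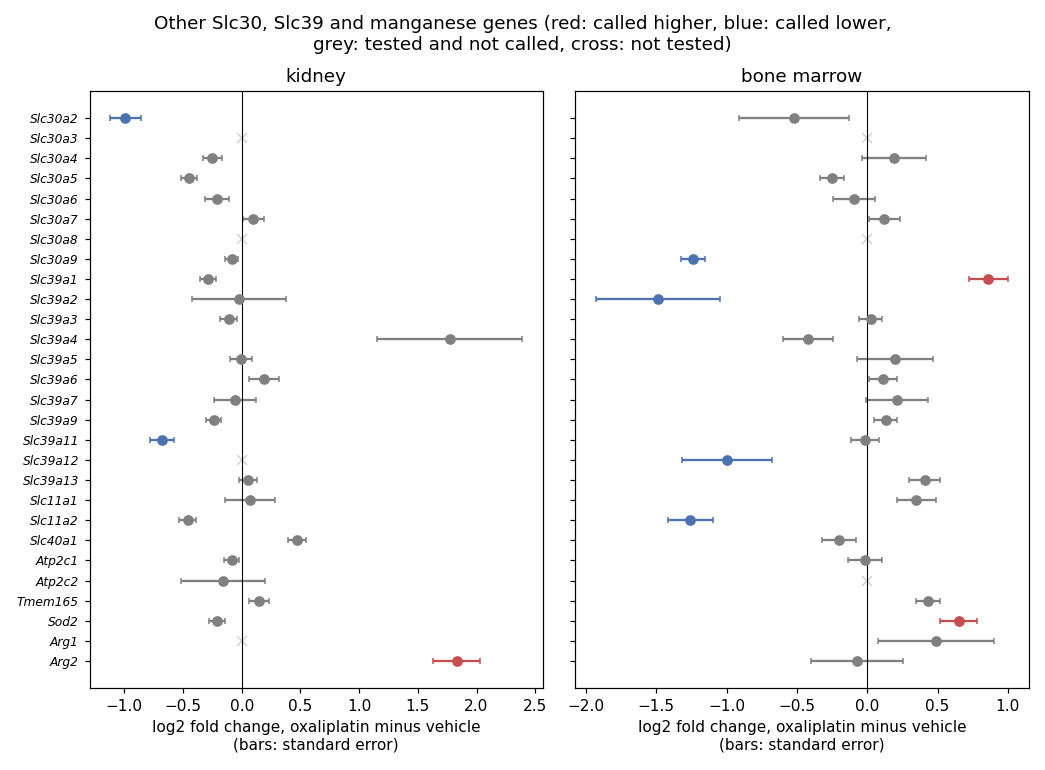
Log2 fold change, oxaliplatin minus vehicle, with its standard error, for the other Slc30, Slc39 and manganese genes in kidney and bone marrow, 5 mice per group. Red and blue points were called higher and lower with edgeR, grey points were tested and not called, and crosses were not tested. Arg2 stands highest in kidney at 1.83, and Slc39a2 lowest in marrow at -1.49.

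Whether these other genes responded differently in the 2 tissues was tested with the interaction of tissue and treatment over 20 libraries. Of 26 tested, 8 were called, beside 23.7% of 24321 genes. The signed kidney change minus the marrow change was positive for Slc30a9 (log2 difference 1.10, edgeR adjusted p = 2.6e-08), Slc39a4 (2.13, edgeR adjusted p = 0.00919), Arg2 (1.86, edgeR adjusted p = 0.00139), Slc11a2 (0.73, edgeR adjusted p = 0.0065) and Slc40a1 (0.61, edgeR adjusted p = 0.00166). For Slc30a9 and Slc11a2 it was the marrow change that was the larger in size, with log2 fold changes of -0.087 in kidney and -1.24 in marrow for Slc30a9 and of -0.46 and -1.26 for Slc11a2. The Slc40a1 call was lost, at under 1.5-fold, with globin genes left out (0.58) and without marrow oxaliplatin mouse 5 (0.52). The difference was negative for Slc39a1 (-1.22, edgeR adjusted p = 8.5e-06), Sod2 (-0.92, edgeR adjusted p = 0.00018) and Slc39a11 (-0.72, edgeR adjusted p = 0.00102). Slc39a1 had log2 fold changes of -0.29 in kidney and 0.86 in marrow, and its groups did not overlap in either tissue. Sod2 was at -0.21 and 0.65. Slc39a4, a zinc importer of the gut, was at 1.77 in kidney (edgeR adjusted p = 0.0546), where oxaliplatin mice ranged from 0.575 to 6.42 CPM, and at -0.42 in marrow. No such test was made for the members, because their 2 changes chose them.

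Finally, genes varying with Mt1 or Slc30a10 from mouse to mouse were sought on log2 CPM after each group's mean was subtracted, over 10 mice. All genes of a mouse come from 1 library and so share its depth and cell composition, which differed between mice. The 3 closest of 13634 genes to Mt1 in kidney were Dtnbp1 (r = 0.995, rho = 0.964), Slc8b1 (r = 0.939, rho = 0.891) and C1qtnf4 (r = 0.936, rho = 0.721). When the 2 mice with the most extreme Mt1 were left out, r was 0.991, 0.891 and 0.894. In marrow, out of 14648 genes, they were Srpk1 (r = 0.964, rho = 0.903), Gm4900 (r = 0.958, rho = 0.927) and Gm6477 (r = 0.946, rho = 0.842), with r of 0.955, 0.934 and 0.859 without 2 mice. Being the highest of so many, such values are a description only.

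For Slc30a10 in marrow the closest were Map1a (r = 0.961, rho = 0.927), Nckap5l (r = 0.954, rho = 0.939) and Tulp2 (r = 0.951, rho = 0.952), with r of 0.973, 0.945 and 0.931 without 2 mice. Their treatment differences did not share one direction, at log2 fold changes of 1.29, 0.51 and -0.61. Among the members, Slc30a10 varied most closely with Slc39a8 (r = 0.837, rho = 0.952) and Slc30a1 (r = 0.751, rho = 0.685), and r was 0.762 and 0.848 without 2 mice. Low counts limit every r and rho of Slc30a10. In oxaliplatin mice 1, 2 and 5 it rested on 14 or 15 counts, too few to rank these mice. Mt1 in kidney varied against Slc39a10 (r = -0.858, rho = -0.83, and r = -0.839 without 2 mice).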

How the data were processed

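RNA was measured in kidney and bone marrow libraries, 5 per tissue and treatment. As deposited by the authors, the values are raw read counts of each gene in each library. According to the study's methods, STAR aligned the reads to the mouse assembly of Ensembl release 101, and uniquely aligned, unambiguous reads were counted in Partek Flow. The submitters' processing notes name STAR, featureCounts and Salmon instead. Which pipeline made the tables, and its strand setting, are not given in the sources used here. Likewise library chemistry is described as a SMARTer kit in the methods and as removal of ribosomal RNA with random hexamer priming in the sample records. Each table had 55774 lines. Lines repeating an identifier (287) and 1 incomplete line were dropped.

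Genes passing filterByExpr of edgeR 4.0.16 (in R 4.3.3) with 10 as the minimum count entered TMM scaling and edgeR's two-sided quasi-likelihood test in its robust form. P values were adjusted by Benjamini-Hochberg over all genes tested. Each tissue was fitted with treatment as its only term. A joint fit of all 20 libraries gave the contrast of the vehicle groups and the interaction. Group means are CPM with the SD over mice. The plan was to name all 9 members, genes of the ZnT, ZIP and manganese lists, and the 3 genes closest to Mt1 and Slc30a10. Of each other list it allowed up to 4 called genes with the largest log2 fold change. Beyond that plan, some genes were named because they dominated a sum, passed only the adjusted p, or were compared for overlap between groups. Members and lists were chosen with earlier results of these data known. Libraries of a group differed by at least 7.51 chi-square per degree of freedom, so none repeats another within counting noise. Floors of 3 counts cover counting error only.

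Alternatives were DESeq2 1.42.0, its size factors in edgeR, library size alone, a filter of only 1 count, a filter of 10 counts in each sample, globin genes left out, Y-linked genes as a covariate, a replicate block, a 2-fold limit, no fold limit and each mouse left out in turn. Levels per kb of unshared exon were added after seeing the data. The authors' blood counts and cytokines were not analysed here. Of 55486 identifiers, 55141 were found in GENCODE M21. Figures were drawn with matplotlib 3.10.9.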

Additional observations from a re-analysis of the deposited data

Results flagged for a closer look

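Among 36 groups of 5 mice, 9 members in 4 groups, 1 held a mouse far from the other 4, where chance gives about 1 in 20. It was Slc39a8 in oxaliplatin kidneys, whose highest mouse had 49.5 CPM while the other 4 lay between 45.3 and 46.1 CPM. That mouse was still below every vehicle kidney.

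A difference between the tissues in the response to oxaliplatin, tested as the interaction with edgeR, marked 8 genes outside the members. The log2 difference, kidney change minus marrow change, was 1.10 for Slc30a9, -1.22 for Slc39a1, 2.13 for Slc39a4, -0.72 for Slc39a11, 0.73 for Slc11a2, 0.61 for Slc40a1, -0.92 for Sod2 and 1.86 for Arg2.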

How the results depend on the processing

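The log2 fold changes of the members moved by less than 1 SD between mice in 165 of 168 comparisons with an alternative. The other 3 came from library size alone: Mtf1 in kidney (-0.061) and marrow (0.053) and Slc39a8 in kidney (-0.26). The counts of called genes stayed within 1.5 times the reported count in 88 comparisons and moved further in 8. With a fold change beyond 2 they were 941 in kidney, 3231 in marrow and 3529 for the interaction, and for the other ZnT, ZIP and manganese genes 1 in kidney and 4 for the interaction. Without a fold limit they were 5679 genes in kidney, 10 of them on those lists. With at least 10 counts in every sample, which tests fewer genes, 10089 genes differed between the vehicle tissues. With globin genes left out, the interaction of Slc40a1 was 0.58, under 1.5-fold, and it was 0.52 without marrow oxaliplatin mouse 5. Slc39a2 in marrow had an adjusted p of 0.124 with the Y-linked covariate, and Slc39a12 had 0.0513 with library size alone and 0.0578 with no filter beyond 1 count. The cause was not tested.

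Replicate numbers were checked for pairing. Deviations of same-numbered vehicle and oxaliplatin libraries correlated between -0.154 and 0.0754 in kidney and between -0.118 and 0.228 in marrow. Between same-numbered kidney and marrow libraries the range was -0.0504 to 0.158. Libraries with different numbers were not correlated, so these values have no reference and cannot decide whether same-numbered libraries share a batch. With a replicate block 2017 genes were called in kidney and 4968 in marrow. Depth limits Mt2, Mt3, Slc39a2, Slc39a12 and, in kidney, Slc30a10.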
